A study of Mus musculus with 12 samples.

Results

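Calcium entering a neuron acts largely through calmodulin, and 10 genes of that system were followed here across 4 groups of cultured cerebellar granule neurons. They were Pcp4, Camk4, the CaM kinase II genes Camk2a, Camk2b, Camk2d and Camk2g, the calcineurin genes Ppp3ca, Ppp3cb and Ppp3r1, and Calb2. The genes were listed by name, with earlier results of these data known, and each was read from its brightest probe set, meaning the probe set annotated to that gene alone with the highest mean over 12 microarrays. All 10 were measured, among 18193 genes read in the same way from 45037 probe sets.

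The study asked how the loss of interferon-β (IFN-b), an antiviral and immunomodulatory cytokine, and its addition altered gene expression in neurons. Cerebellar granule neurons (CGNs) came from B10.RIII mouse pups of 7 days and were lysed on day 3 of culture. The 4 groups, each of 3 arrays, were Ifnb-/- CGNs treated with IFN-b at 100 U/ml for 24 hr, untreated Ifnb-/- CGNs, Ifnb+/+ CGNs given that treatment, and untreated Ifnb+/+ CGNs. The Ifnb-/- mice were germline knockouts backcrossed to B10.RIII, so every cell of a culture lacked the gene. The methods allow wild-type mice to be Ifnb+/- or Ifnb+/+ littermates, while the labels name Ifnb+/+. Nothing in the labels says how many pups or litters stood behind the 3 arrays of a group, so the p-values measure only the spread between these arrays.

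Calmodulin changes shape when it binds calcium and then activates kinases and phosphatases. CaM kinase II is a multi-subunit enzyme abundant at synapses, CaM kinase IV is a largely nuclear kinase of granule neurons that phosphorylates CREB, and calcineurin is a calcium-dependent phosphatase that dephosphorylates NFAT. Pcp4, also called PEP-19, is a small IQ-motif protein that binds calmodulin and alters its calcium exchange, and Calb2 encodes calretinin, a calcium-binding protein of granule neurons and unipolar brush cells.

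Most granule neuron markers were present. Of 18 measured granule neuron markers, 15 lay above the array median on at least 1 array, whereas Gabrd, Grin2c and Cdh15, genes of mature granule cells, lay below it on all 12. The treatment labels were borne out by interferon-stimulated genes. Of 11 measured, 8 were called higher in treated Ifnb-/- CGNs and 11 in treated Ifnb+/+ CGNs, and all 11 had an unadjusted p under 0.05 in both. All 11 were lower in treated Ifnb-/- than in treated Ifnb+/+ CGNs at that unadjusted level (median difference -1.61), and none was called. Between untreated genotypes 4 were lower in Ifnb-/- CGNs at that level (median of the 11 -0.73), and none was called. The Ifnb1 probe set averaged 2.95 and 2.70 (log2) in treated and untreated Ifnb-/- CGNs, against 2.66 and 2.72 in treated and untreated Ifnb+/+ CGNs, so it could not check the genotype labels. Replicate arrays correlated at r = 0.997 to 0.998 in untreated Ifnb-/- CGNs but at 0.971 to 0.993 in untreated Ifnb+/+ CGNs, where replicate 1 stood apart. Replicate 2 of that group correlated more closely with the untreated Ifnb-/- arrays (r = 0.995) than with its own group, and each treated Ifnb+/+ array correlated best with a treated Ifnb-/- array. Treated Ifnb-/- replicate 2 also stood apart and correlated best with treated Ifnb+/+ replicate 3 (r = 0.991). The 10 astrocyte and Bergmann glia markers summed to 13097 and 9875 on these arrays and to 4054 to 6719 on the other 10, and 6 cycling and progenitor markers to 715 and 613, against 296 to 399 (linear scale). All values below are log2 signals as deposited, differences are log2 fold changes from limma with the standard error (SE), and a gene was called at a Benjamini-Hochberg adjusted p under 0.05 over all 18193 genes.

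Pcp4 was the member that set untreated Ifnb+/+ CGNs apart from the other 3 groups. The 250 bases just upstream of its annotated start are printed here from RefSeq's GRCm38.p6 promoter table (chr16:96467356-96467605, plus strand). They are read 5′ to 3′, with TTTC and its reverse complement GAAA in capitals.
Pcp4: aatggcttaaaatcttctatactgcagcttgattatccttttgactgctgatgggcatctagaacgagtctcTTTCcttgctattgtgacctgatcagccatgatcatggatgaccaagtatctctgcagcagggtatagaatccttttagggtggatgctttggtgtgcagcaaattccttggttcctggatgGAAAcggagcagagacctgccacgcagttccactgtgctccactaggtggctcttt
The capitals are single copies of the repeat from which the core of the interferon-stimulated response element, TTTCNNTTTC, is built. In this window they began 178 and 56 bases before the start. The full core, searched on both strands, was not in the Pcp4 window, and 2.98% of 32851 promoter windows of 250 bases held it, while 86.4% held at least 1 single copy. Neither TTCNNNGAA, the gamma-activated site (in 7.02% of windows), nor TGACGTCA, the cyclic AMP response element bound by CREB (in 1.55%), was found. Of the 10 genes, 5 matched the promoter table (Pcp4, Camk2b, Camk2d, Ppp3cb and Ppp3r1), and among these only the Ppp3cb window held the full core. These matches describe letters in a window and not binding.

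Untreated Ifnb-/- CGNs had more Pcp4 signal than untreated Ifnb+/+ CGNs, as read from the 1 single-gene probe set of Pcp4. The log2 signals were 10.80, 10.75 and 10.84 on the 3 untreated Ifnb-/- arrays, against 9.94, 10.04 and 9.89 on the 3 untreated Ifnb+/+ arrays. The groups did not overlap, and the gap between them exceeded the spread within either. The difference was 0.84 (SE 0.11, 95% confidence interval 0.61 to 1.07), a 1.79-fold higher signal with an adjusted p of 0.0115 in limma. Pcp4 was 1 of 10 members called, against 0.115% of all genes called in this comparison and 0.0330% called higher. The call was lost when any 1 of the untreated Ifnb-/- arrays or replicate 3 of untreated Ifnb+/+ was left out (adjusted p 0.0713 to 0.0995 in limma), although the difference itself stayed between 0.80 and 0.88. Only leaving out an untreated array can move this difference.

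IFN-b raised Pcp4 in Ifnb+/+ CGNs. Treated Ifnb+/+ arrays measured 10.53, 10.81 and 10.59, against the 9.94, 10.04 and 9.89 of untreated Ifnb+/+ arrays. Every treated array was above every untreated array. The difference was 0.68 (SE 0.11), or 1.60-fold, with an adjusted p of 0.00378 in limma, and it was called in all 12 fits that left out an array (0.60 to 0.74). Its size can move only without an Ifnb+/+ array. It was not called when only the 2 groups compared were fitted (adjusted p = 0.0974). Again Pcp4 was the 1 member called of 10, against 3.14% of all genes called and 1.78% called higher. This comparison and that of the untreated genotypes share the same 3 untreated Ifnb+/+ arrays, so they are not independent.

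In Ifnb-/- CGNs no change in Pcp4 passed the test. The treated Ifnb-/- arrays measured 10.92, 10.78 and 10.84, against 10.80, 10.75 and 10.84 in untreated Ifnb-/- CGNs, and the groups overlapped. The difference was 0.05 (95% confidence interval -0.18 to 0.28, adjusted p = 0.843 in limma). Between the treated genotypes, Ifnb-/- minus Ifnb+/+, the difference was 0.21 (interval -0.02 to 0.44, adjusted p = 0.988), with overlapping arrays. The IFN-b effect in Ifnb-/- minus that in Ifnb+/+ was -0.63 (SE 0.15, unadjusted p = 0.00111), which did not pass after adjustment (0.323) and passed without untreated Ifnb+/+ replicate 2 (0.0450), where 1237 of all genes were called in place of 4. The difference in response between genotypes was therefore not called.

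Ranked by group mean, Pcp4 averaged 10.85 ± 0.07 in treated Ifnb-/- CGNs, 10.80 ± 0.04 in untreated Ifnb-/- CGNs, 10.64 ± 0.15 in treated Ifnb+/+ CGNs and 9.96 ± 0.08 in untreated Ifnb+/+ CGNs (SD, n = 3 each). Each of the first 3 groups overlapped its neighbour in this order, and the lowest did not overlap any other group. Averaged over treatments, Ifnb-/- CGNs were higher by 0.52 (SE 0.07, adjusted p = 0.0183 in limma), where 0.231% of all genes were called. That call was lost when any untreated Ifnb-/- array, treated Ifnb-/- replicate 1 or 3, or untreated Ifnb+/+ replicate 3 was left out (adjusted p up to 0.0913).

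**Figure D1:**
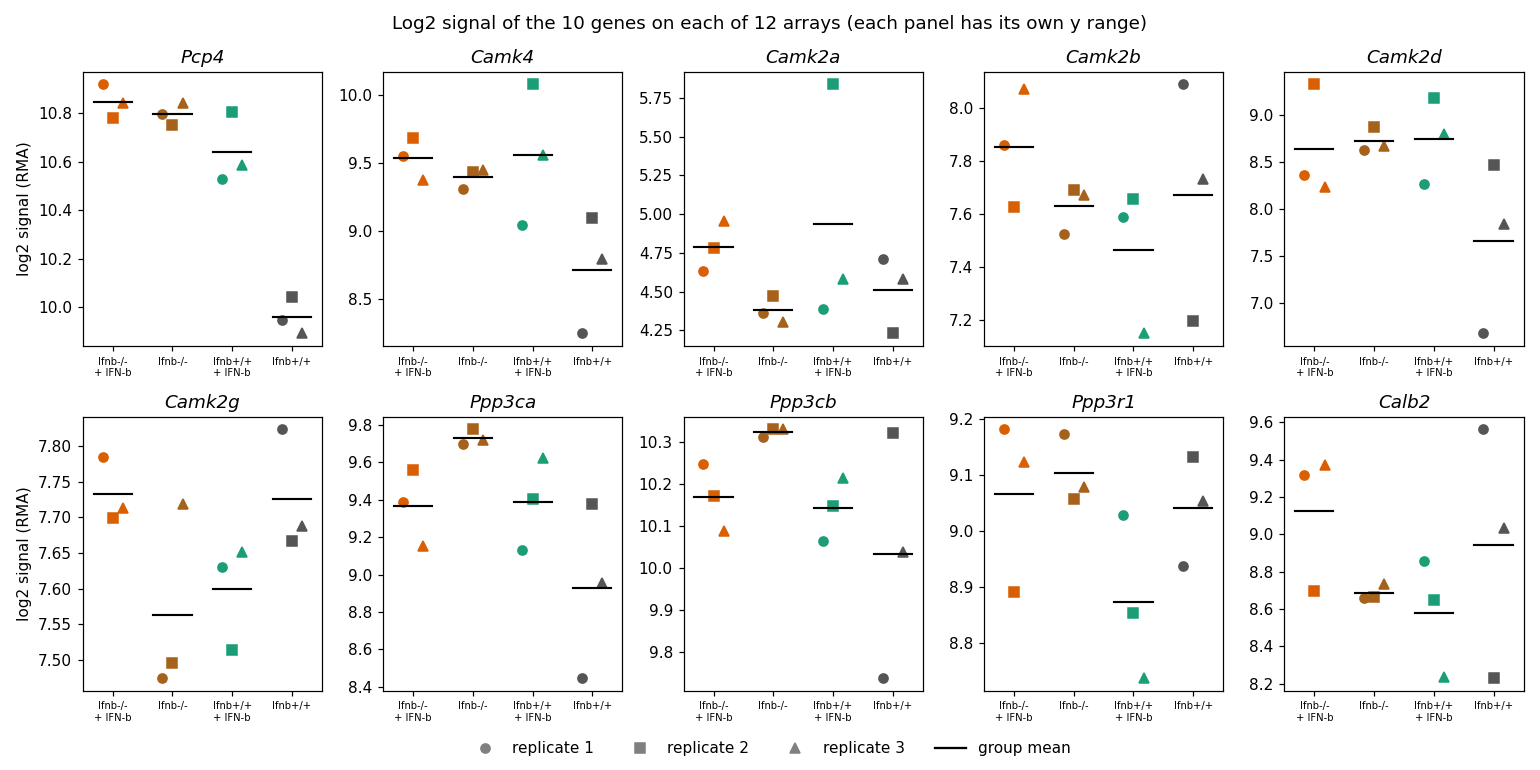
Log2 RMA signal of the 10 genes on each of the 12 arrays, with groups along the x axis, symbols for the 3 replicates and black lines for group means. The untreated Ifnb+/+ arrays are the 3 lowest for Pcp4, and untreated Ifnb+/+ replicate 1 lies far below the other arrays for Camk2d and Ppp3ca.

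Markers of microglia differed in the comparisons in which Pcp4 did, and also with IFN-b in Ifnb-/- CGNs, where Pcp4 was not called. The part of other cells in the Pcp4 differences was not tested. In bulk arrays, fewer cells of a type and less RNA per cell cannot be told apart. Of 15 measured microglial markers, 2 were called lower in untreated Ifnb-/- than in untreated Ifnb+/+ CGNs, against 0.115% of all genes called in either direction. With IFN-b in Ifnb+/+ CGNs 8 were called lower, against 1.36% of all genes. With IFN-b in Ifnb-/- CGNs 1 was called higher and 1 lower, against 1.67% of all genes called in either direction. The summed signal of the 15 markers ranged from 2058 to 2309 in treated Ifnb-/- CGNs, 2550 to 2809 in untreated Ifnb-/- CGNs, 1961 to 2432 in treated Ifnb+/+ CGNs and 3619 to 4302 in untreated Ifnb+/+ CGNs (linear scale). The untreated Ifnb+/+ arrays were therefore the highest for microglial markers and the lowest for Pcp4, with no overlap in either. Cx3cr1, P2ry12 and Itgam lay below the array median throughout.

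Purkinje cells express Pcp4 strongly in the intact cerebellum. Of 9 measured Purkinje cell markers none was called in either comparison, 1 passed at an unadjusted p under 0.05 in each direction between untreated genotypes, and Ppp1r17, Slc1a6, Gng13 and Rgs8 lay below the array median on all 12 arrays. Their summed signal ranged from 383 to 522 in treated Ifnb-/- CGNs, 595 to 637 in untreated Ifnb-/- CGNs, 313 to 479 in treated Ifnb+/+ CGNs and 400 to 571 in untreated Ifnb+/+ CGNs. The sum was thus higher in untreated Ifnb-/- than in untreated Ifnb+/+ CGNs, as Pcp4 was. Taken singly, 5 of the 9 markers had a positive difference there (median 0.02, against -0.09 for all genes). With IFN-b in Ifnb+/+ CGNs the sums of treated and untreated arrays overlapped. There 8 of the 9 markers had a negative fold change (median -0.23, against -0.03 for all genes) while Pcp4 rose. The 18 granule neuron markers summed to 16230 to 18097 in treated and 18849 to 21008 in untreated Ifnb-/- CGNs. In Ifnb+/+ CGNs they summed to 16518 to 17648 in treated and 14022 to 16339 in untreated cultures. The untreated Ifnb+/+ sums were thus below those of untreated Ifnb-/- and of treated Ifnb+/+ CGNs without overlap, as Pcp4 was. They overlapped the sums of treated Ifnb-/- CGNs, which Pcp4 did not. Of these 18 markers 14 had a positive difference between untreated genotypes (median 0.13, against -0.09 for all genes). With IFN-b in Ifnb+/+ CGNs 9 did (median 0.01, against -0.03 for all genes). None was called in limma in either comparison. In the untreated cultures, 7 markers with a positive difference and 1 with a negative one had an unadjusted p under 0.05. The matching shares of all genes were 8.40% and 12.8%. With IFN-b 1 marker, with a negative fold change, had a p that low. No astrocyte or cycling marker was called in these comparisons (2 and 1 astrocyte markers and 0 cycling markers at that unadjusted level). Pcp4 was called in both without treated Ifnb-/- replicate 2 and without treated Ifnb+/+ replicate 3, the arrays with the highest sums of those markers. Leaving out treated Ifnb-/- replicate 2 cannot move either difference (0.84 and 0.68), since that array is in neither comparison. Leaving out treated Ifnb+/+ replicate 3 can move only the difference with IFN-b in Ifnb+/+ CGNs, which was then 0.71. The part of these cells in the Pcp4 differences was not tested.

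Pcp4 lies on chromosome 16 near Mx1 and Mx2, which encode interferon-induced antiviral GTPases. Counting measured genes in RefSeq order from Pcp4, Mx1 was at position 3 and Mx2 at position 5 on the same side. Mx1 rose by 5.81 in Ifnb+/+ (adjusted p = 4.92e-05 in limma) and by 4.54 in Ifnb-/- CGNs with IFN-b (7.15e-04), and Mx2 rose by 3.55 in Ifnb+/+ CGNs (0.00154). In Ifnb-/- CGNs the Mx2 difference was 1.76, without overlap but not called (adjusted p = 0.102). None of the other 14 of the 16 nearest measured genes was called in these comparisons, and none of the 16 between untreated genotypes.

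Camk4, Camk2d and Ppp3ca also had a higher signal on every untreated Ifnb-/- array than on any untreated Ifnb+/+ array, but with wide spread, and none was called. Together with Pcp4 they made 4 of 10 members whose untreated Ifnb-/- arrays all exceeded the untreated Ifnb+/+ arrays, against 10.1% of all genes not overlapping in that direction, and the same 4 were higher at an unadjusted p under 0.05, against 8.40%. The members' median difference was 0.18, while that of all genes was -0.09.

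Camk4 measured 9.31, 9.44 and 9.45 in untreated Ifnb-/- CGNs, against 8.25, 9.09 and 8.79 in untreated Ifnb+/+ CGNs. The lowest of these 6 values belonged to untreated Ifnb+/+ replicate 1. The difference of 0.69 (SE 0.25) had an adjusted p of 0.194 in limma. With IFN-b, Camk4 measured 9.05, 10.08 and 9.56 in treated Ifnb+/+ CGNs, and the difference from untreated Ifnb+/+ was 0.85 (SE 0.25, adjusted p = 0.0902). Here treated replicate 1 fell just below untreated replicate 2, so the groups overlapped. In treated Ifnb-/- CGNs Camk4 measured 9.56, 9.68 and 9.38, overlapping the untreated Ifnb-/- arrays.

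The other probe sets of Camk4 followed the brightest only in part. Of its 5 probe sets 4 had a positive difference between untreated genotypes (-0.16 to 0.69), and with IFN-b in Ifnb+/+ CGNs only 3 did (-0.22 to 0.85). With IFN-b in Ifnb-/- CGNs 2 dimmer probe sets changed by -0.90 and -0.74 (unadjusted p = 0.00276 and 0.0179 in limma), in the direction opposite to the brightest. Another probe set had the sign of the brightest in all 3 comparisons, at 0.11 between untreated genotypes, 0.27 with IFN-b in Ifnb-/- and 0.21 with IFN-b in Ifnb+/+ CGNs. Averaging the probe sets therefore lowered the Camk4 difference between untreated genotypes to 0.30 and that with IFN-b in Ifnb+/+ CGNs to 0.15.

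Camk2d, the delta subunit of CaM kinase II, spread most of the 10 genes, over 2.65 log2 units. It measured 8.62, 8.87 and 8.66 in untreated Ifnb-/- CGNs, against 6.68, 8.46 and 7.84 in untreated Ifnb+/+ CGNs. The groups did not overlap, but the low group alone spanned more than the difference of 1.06 (SE 0.40, adjusted p = 0.201 in limma). Treated Ifnb+/+ CGNs measured 8.26, 9.18 and 8.80, a difference of 1.09 (SE 0.40, adjusted p = 0.168) from untreated Ifnb+/+ CGNs, with treated replicate 1 below untreated replicate 2. Treated Ifnb-/- CGNs measured 8.35, 9.32 and 8.23 and lay on both sides of the untreated Ifnb-/- arrays. The highest of these was replicate 2, the array with the highest astrocyte and cycling marker sums, and without it the difference with IFN-b in Ifnb-/- CGNs was -0.42, against -0.08 with all arrays (adjusted p = 0.603 without it).

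Here the probe sets of the gene moved together. All 7 Camk2d probe sets were higher in untreated Ifnb-/- CGNs at an unadjusted p under 0.05 (0.40 to 1.21), where 9.18% of all 34945 single-gene probe sets passed in that direction and 38.9% had a positive difference. With IFN-b all 7 had a positive fold change in Ifnb+/+ CGNs (0.10 to 1.09, against 43.7% of all), 4 of them at an unadjusted p under 0.05 (7.92% of all), and all 7 a negative one in Ifnb-/- CGNs (-0.30 to -0.08, where 57.0% of all were positive), none with a p that low. The 7 probe sets were read on the same arrays and are not replicates. No adjusted p among them was below 0.182 in these 3 comparisons.

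Ppp3ca, a catalytic subunit of calcineurin, measured 9.70, 9.78 and 9.72 in untreated Ifnb-/- CGNs, against 8.45, 9.38 and 8.96 in untreated Ifnb+/+ CGNs. The Ifnb-/- arrays lay within 0.1 of each other and above all Ifnb+/+ arrays, and the difference was 0.81 (SE 0.21, adjusted p = 0.150 in limma). With IFN-b, Ppp3ca measured 9.13, 9.40 and 9.63 in Ifnb+/+ CGNs (difference 0.46, SE 0.21, adjusted p = 0.243). In Ifnb-/- CGNs treated arrays measured 9.39, 9.56 and 9.15, all below the untreated Ifnb-/- arrays, yet the difference of -0.37 was not called (adjusted p = 0.435). The IFN-b effect in Ifnb-/- minus that in Ifnb+/+ was -0.83 (SE 0.29, unadjusted p = 0.0151, adjusted p = 0.323). With Pcp4 it was 1 of 2 members lower at that unadjusted level, against 5.21% of all genes, and no member was called, against 0.0220%.

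The 3 probe sets of Ppp3ca had differences of 0.62 to 0.81 between untreated genotypes, each at an unadjusted p under 0.05. Averaged over treatments Ppp3ca was 0.39 higher in Ifnb-/- CGNs (unadjusted p = 0.0200, adjusted p = 0.461 in limma), the other member besides Pcp4 at that level, which 3.02% of all genes reached in that direction.

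**Figure D2:**
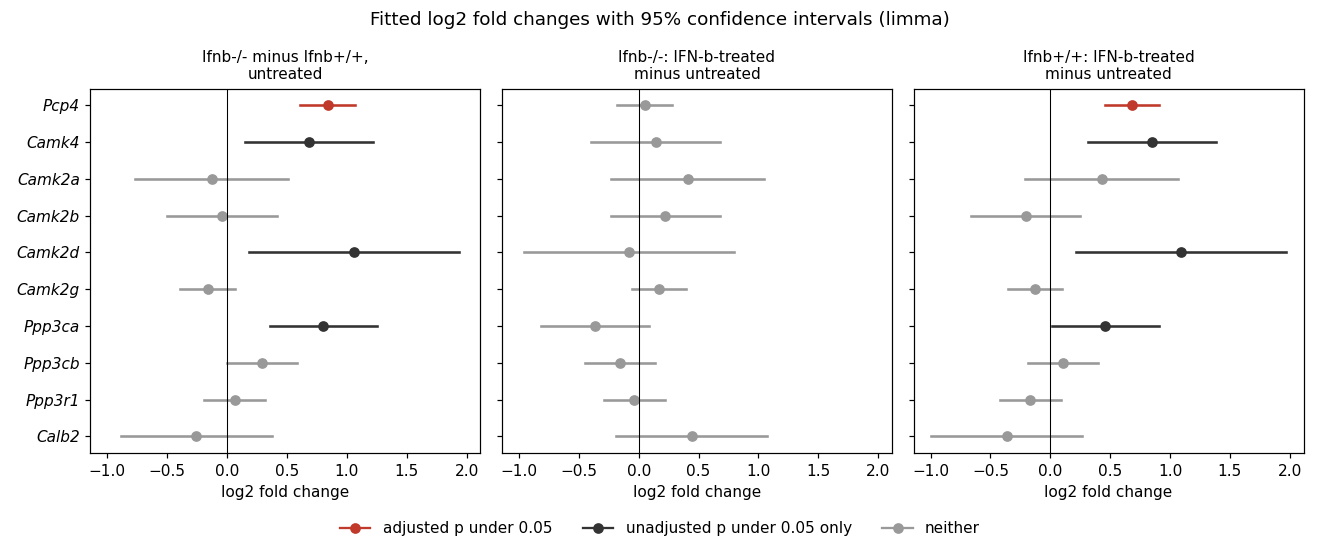
Log2 fold change of each gene (points) with its 95% confidence interval (lines) in 3 comparisons, colored by whether the adjusted or only the unadjusted p was under 0.05. Pcp4 alone is called, in the untreated genotypes and with IFN-b in Ifnb+/+ CGNs, and its interval with IFN-b in Ifnb-/- CGNs spans 0.

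The values of Camk4, Camk2d and Ppp3ca turned on single untreated Ifnb+/+ arrays. Without replicate 1 of that group, the array that stood apart, the differences between untreated genotypes shrank to 0.45 for Camk4, 0.57 for Camk2d and 0.56 for Ppp3ca (adjusted p 0.360 to 0.665 in limma), while that of Pcp4 remained at 0.83 (0.0287). Without replicate 2, the array nearest to Ifnb-/-, they widened to 0.88, 1.46 and 1.03 and were called (0.0158 to 0.0334), as was Ppp3cb at 0.44 (0.0285), but 3846 of all genes were then called in place of 21. Without that array 4 members were also called with IFN-b in Ifnb+/+ CGNs (Pcp4, Camk4, Camk2d and Ppp3ca), where 2905 of all genes were called in place of 571. The same 4 were higher at an unadjusted p under 0.05 on all arrays, against 8.81% of all genes. Leaving out treated Ifnb+/+ replicate 1 called Camk4 there too (1.11, adjusted p = 0.0156), with 1080 of all genes.

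**Figure D3:**
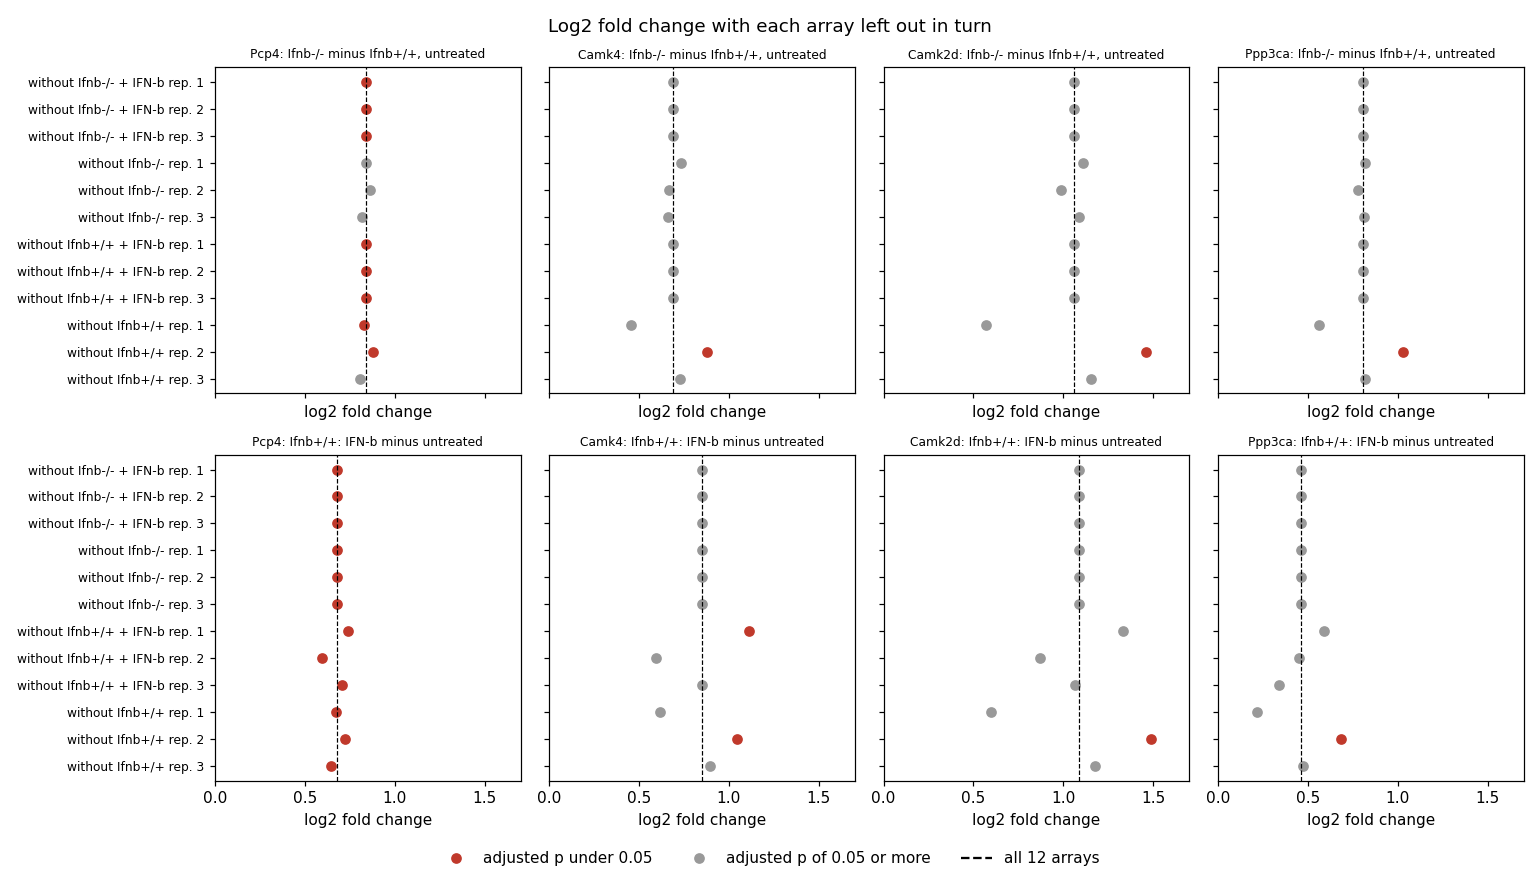
Log2 fold changes of Pcp4, Camk4, Camk2d and Ppp3ca when each of the 12 arrays is left out in turn, between untreated genotypes (top) and with IFN-b in Ifnb+/+ CGNs (bottom), in red where the adjusted p is under 0.05; dashed lines mark all 12 arrays. Pcp4 stays near 0.84 and 0.68, whereas Camk2d ranges from 0.57 to 1.46 and from 0.60 to 1.49. Only arrays of the groups compared can move a fold change.

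The remaining calcineurin and CaM kinase II genes had smaller differences. Ppp3cb, another catalytic subunit, had 10.31, 10.33 and 10.33 in untreated Ifnb-/- CGNs, against 9.74, 10.32 and 10.04 in untreated Ifnb+/+ CGNs. The difference of 0.29 just missed an unadjusted p of 0.05 (0.0505 in limma), and replicate 2 of Ifnb+/+ reached the Ifnb-/- level. All 5 of its probe sets had a positive difference, 2 of them at an unadjusted p under 0.05. Treated Ifnb-/- arrays measured 10.25, 10.17 and 10.09, below all untreated Ifnb-/- arrays (adjusted p = 0.604), and treated Ifnb+/+ arrays 10.06, 10.15 and 10.21.

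Ppp3r1 encodes the regulatory subunit that binds calcium within calcineurin. Its 12 values lay between 8.74 and 9.18, and no comparison reached an unadjusted p of 0.05. The interval of its difference between untreated genotypes was -0.19 to 0.32.

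Camk2a, the alpha subunit typical of forebrain excitatory neurons, was dim, between 4.23 and 5.84 where array medians lay at 4.33 to 4.42. Its highest value came from treated Ifnb+/+ replicate 2 alone, and the other 11 arrays did not exceed 4.96. Treated Ifnb-/- arrays (4.63, 4.78 and 4.96) all exceeded untreated Ifnb-/- arrays (4.36, 4.47 and 4.30), with a difference of 0.41 that was not called (adjusted p = 0.531). Without treated Ifnb+/+ replicate 2, its difference with IFN-b in Ifnb+/+ CGNs was -0.02, against 0.43 with all arrays.

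Camk2b, the beta subunit that ties the kinase to actin, ranged from 7.15 to 8.09. Untreated Ifnb-/- arrays (7.52, 7.69 and 7.67) lay inside the range of untreated Ifnb+/+ arrays (8.09, 7.19 and 7.73). Camk2g, the gamma subunit, stayed between 7.47 and 7.82, the narrowest range of the 10. All 3 treated Ifnb+/+ arrays were below the untreated Ifnb+/+ arrays for Camk2g, by 0.13 on average (adjusted p = 0.529). With IFN-b, 1 member of 10 was higher and 1 lower without overlap in Ifnb+/+ CGNs, against 6.67% and 9.28% of all genes, and 1 was higher and 2 were lower in Ifnb-/- CGNs, against 20.3% and 12.6%.

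Calb2 ran most closely with Camk2b among the 10 genes (Pearson's r = 0.948 over the 12 arrays). It measured 9.32, 8.70 and 9.37 in treated Ifnb-/- CGNs, 8.66, 8.66 and 8.73 in untreated Ifnb-/- CGNs, 8.85, 8.65 and 8.23 in treated Ifnb+/+ CGNs, and 9.56, 8.23 and 9.03 in untreated Ifnb+/+ CGNs. Untreated Ifnb+/+ CGNs held both its highest value (replicate 1) and its lowest (replicate 2), so that every comparison with that group overlapped. The groups also overlapped with IFN-b in Ifnb-/- CGNs and between treated genotypes. There treated Ifnb-/- replicate 2 (8.70) was below untreated Ifnb-/- replicate 3 (8.73) and treated Ifnb+/+ replicate 1 (8.85). Differences between groups ran from -0.36 with IFN-b in Ifnb+/+ to 0.55 between treated genotypes, none at an unadjusted p under 0.05. The difference between untreated genotypes was -0.26, and 0.05 without untreated Ifnb+/+ replicate 1. Without replicate 2 of that group, the IFN-b effect in Ifnb-/- minus that in Ifnb+/+ was called at 1.16 (adjusted p = 0.0497 in limma), among 1237 of all genes. Treated Ifnb-/- replicate 2 lay below the other treated Ifnb-/- arrays, and without it the difference with IFN-b in Ifnb-/- CGNs was 0.66, against 0.44 with all arrays, and was not called (adjusted p = 0.305 without it). Eomes, a marker of the unipolar brush cells that also contain calretinin, was 0.82 lower in untreated Ifnb-/- than in untreated Ifnb+/+ CGNs at an unadjusted p of 0.0133 (adjusted p = 0.190 in limma). It had the lowest difference of the 3 such markers measured. Their median was -0.09, as for all genes, and their highest was 0.12. The 3 of 5 such markers measured, of which Lmx1a lay below the array median throughout, summed to 350 to 461 in treated Ifnb-/- CGNs, 358 to 387 in untreated Ifnb-/- CGNs, 372 to 402 in treated Ifnb+/+ CGNs and 369 to 462 in untreated Ifnb+/+ CGNs. Their part in the Calb2 values was not tested.

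No member was called with IFN-b in Ifnb-/- CGNs, where 1.67% of all genes were, or between treated genotypes, where 0.0605% were. At an unadjusted p under 0.05 in limma there were also 0 members in both, against 14.6% and 4.94% of all genes.

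**Figure D4:**
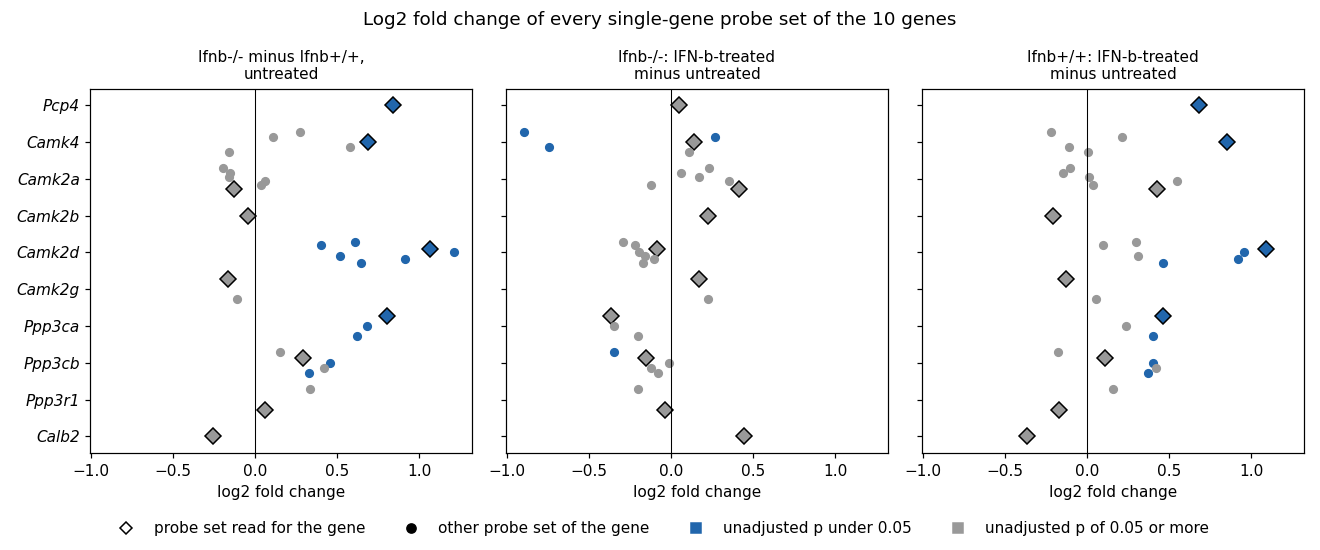
Log2 fold change of all 33 single-gene probe sets of the 10 genes in 3 comparisons, with diamonds for the probe set read for each gene and blue for an unadjusted p under 0.05. The 7 Camk2d and 3 Ppp3ca probe sets lie right of 0 between untreated genotypes and with IFN-b in Ifnb+/+ CGNs, and left of it with IFN-b in Ifnb-/- CGNs, while those of Camk4 fall on both sides.

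The wider calcium and calmodulin pathway was described with 8 lists of 72 genes, of which 64 were measured. Between untreated genotypes no listed gene was called, an unadjusted p under 0.05 was reached by 8 higher and 7 lower genes (8.40% and 12.8% of all genes), and the median difference of -0.08 was close to that of all genes (-0.09). The smallest p belonged to Hpcal4, a neuronal calcium sensor, at -0.66 (adjusted p = 0.0827 in limma). Grin2b, the NMDA receptor subunit that anchors CaM kinase II, followed at 0.86 and Camk1, a cytoplasmic CaM kinase, at -0.58 (adjusted p = 0.122 for both). Gap43, an IQ-motif protein that binds calmodulin like Pcp4, differed by 0.45 (adjusted p = 0.185).

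With IFN-b in Ifnb+/+ CGNs, 1 of the 64 genes was called higher and 3 lower, against 1.78% and 1.36% of all genes. Dapk1, a calmodulin-regulated kinase linked to cell death, measured 8.35, 8.95 and 8.90 in treated against 7.58, 7.82 and 7.70 in untreated Ifnb+/+ CGNs (1.04, SE 0.15, adjusted p = 0.00197). Camk1 measured 5.24, 4.94 and 5.22 in treated against 6.28, 5.91 and 5.88 in untreated Ifnb+/+ CGNs (-0.89, SE 0.13, adjusted p = 0.00222). Both comparisons were free of overlap and were called in all 12 fits without an array.

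Adcy8, a calmodulin-stimulated adenylyl cyclase, was called lower with IFN-b in both genotypes. It measured 4.72, 4.37 and 4.65 in treated against 5.27, 5.08 and 5.48 in untreated Ifnb-/- CGNs (-0.70, SE 0.14, adjusted p = 0.0326 in limma). In Ifnb+/+ CGNs it measured 4.65, 4.75 and 4.36 in treated against 5.52, 5.48 and 5.59 in untreated cultures (-0.95, SE 0.14, adjusted p = 0.00325). Adcy8 was dim in treated cultures, at 4.36 to 4.75 where array medians lay at 4.33 to 4.42. The call in Ifnb-/- was lost in 7 of 12 fits without an array (every Ifnb-/- array of either treatment and untreated Ifnb+/+ replicate 3, adjusted p up to 0.174), that in Ifnb+/+ in none. Pde1b, a calmodulin-dependent phosphodiesterase, was 0.78 lower with IFN-b in Ifnb+/+ CGNs (adjusted p = 0.0381), a call lost in 8 of 12 such fits (any untreated Ifnb-/- array, treated Ifnb-/- replicate 1, untreated Ifnb+/+ replicate 1 or 3, and treated Ifnb+/+ replicate 2 or 3, adjusted p up to 0.146). Apart from Adcy8 no listed gene was called with IFN-b in Ifnb-/- CGNs, and none of the 64 was called in the difference between the IFN-b effects.

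Rcan2, Mef2d, Mef2a and Mylk were not called, with adjusted p-values from 0.0526 to 0.185 in limma. Among calcineurin regulators, Rcan2, an inhibitor of the phosphatase, changed by -0.75 with IFN-b in Ifnb+/+ (adjusted p = 0.0980) and by -0.91 in Ifnb-/- CGNs (0.0697). Among transcription factors downstream of calcineurin and the kinases, Mef2d changed by -0.64 with IFN-b in Ifnb+/+ CGNs (adjusted p = 0.0526 in limma), while Mef2a differed by 0.57 between untreated genotypes (0.185). Among kinases, Mylk, the myosin light chain kinase, changed by 0.77 with IFN-b in Ifnb-/- CGNs (0.131). None of these passed the threshold.

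**Figure D5:**
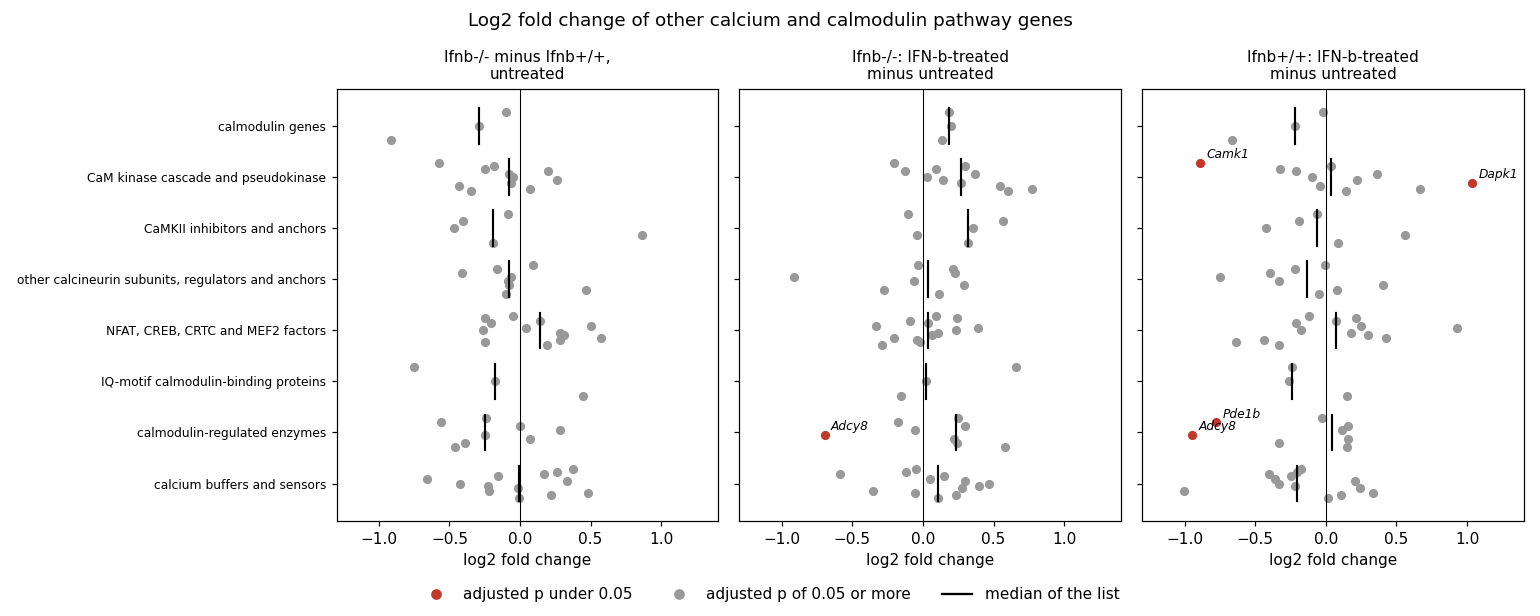
Log2 fold changes of 64 other calcium and calmodulin pathway genes in 8 lists (points; vertical bars are list medians) in 3 comparisons, with red for an adjusted p under 0.05. No gene is red between untreated genotypes; Adcy8 is red with IFN-b in both genotypes, and Dapk1, Camk1 and Pde1b in Ifnb+/+ CGNs.

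Genes whose signal ran most like that of a member were listed by Pearson's r over the 12 arrays, among 7731 genes with a mean of at least 6, as a description. For Pcp4 they were Chn2, which encodes β-chimaerin (r = 0.940), Syne1, which encodes the nuclear envelope protein nesprin-1 (0.905), Cipc (0.894), Asph (0.891) and Tmem181a (0.891). For Camk4 they were Smarca2 (0.988), Adamts18, Purg, Tmem170b and Hspb11 (0.971), and for Calb2 Sult4a1 (0.964), Pomgnt2, Hpcal1, Fbxl15 and Tprn (0.956). All rest on the same 12 arrays, and for Camk4 and Calb2 untreated Ifnb+/+ replicate 1 was an extreme.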

How the data were processed

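Total RNA of the 12 samples was hybridised to Affymetrix arrays after 3′ amplification, 1 array per sample. The authors summarised the probes by RMA with quantile normalization, and the deposited values are log2 signals, which were not normalized again here. Probe sets were named from the platform annotation: 34945 named 1 gene, 932 several and 9160 none. Arrays carry no read depth, and their number limits the precision. A model of 4 group means was fitted over all 12 arrays with limma (version 3.58.1, R version 4.3.3), moderated by empirical Bayes, and p-values were adjusted over 18193 genes by Benjamini-Hochberg. The fit was tested on simulated data. The members and lists were chosen with earlier results of these data known. Named were all 10 members (with folds where called or at an unadjusted p under 0.05, and others by range), listed pathway genes that were called or had the 2 smallest p of their list, and the 5 genes most like Pcp4, Camk4 and Calb2. Genes outside this rule (Mx1, Mx2, Eomes) and further member values were named after their values were seen. Alternatives were averaged probe sets, single probe sets, a minimum mean of 5, further quantile normalization, median centring, array weights, a trended robust variance, only the groups compared, a block for the replicate number, leaving out each array and the methods' t-test.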

Additional observations from a re-analysis of the deposited data

How the results depend on the processing

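None of the members' differences with an unadjusted p under 0.05 on all arrays, nor any called pathway gene (for which dimmer probe sets were not compared), changed direction under the alternatives run, except that dimmer probe sets of Camk4 taken singly were negative between untreated genotypes (1 of 5) and with IFN-b in Ifnb+/+ (2 of 5). Pcp4 kept a positive difference of 0.84 to 0.92 between untreated genotypes over the 11 settings other than leaving out an array, and of 0.64 to 0.77 with IFN-b in Ifnb+/+ CGNs. Several of these settings could not move it. Pcp4 has 1 single-gene probe set, so averaged and single probe sets gave the same values. A minimum mean, a trended robust variance, a fit of only the groups compared and a t-test do not change a difference of group means. Leaving out each array, members called ranged from 0 to 5 between untreated genotypes, stayed at 0 with IFN-b in Ifnb-/- and between treated genotypes, and ranged from 1 to 4 with IFN-b in Ifnb+/+, 0 to 3 in the difference between IFN-b effects and 0 to 1 averaged over treatments, and pathway genes called from 0 to 15, 0 to 3 and 3 to 13 in the first 3 of these. The counts of 5, 4, 3, 15 and 13 all came without untreated Ifnb+/+ replicate 2, when 3846 of all genes were called between untreated genotypes, 2905 with IFN-b in Ifnb+/+ and 1237 in the difference between effects.

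Array weights called 6 members between untreated genotypes, 2 with IFN-b in Ifnb-/-, 4 with IFN-b in Ifnb+/+, 6 in the difference between effects and 2 averaged over treatments, and 41, 23 and 21 pathway genes in the first 3, against 10071, 5469, 3914, 5351 and 1820 of all genes in those 5 comparisons. With only the groups compared, 0 members and 1 pathway gene were called with IFN-b in Ifnb+/+ (Pcp4 adjusted p = 0.0974 in limma), and 5 pathway genes with IFN-b in Ifnb-/-, against 131 and 1276 of all genes. The methods' t-test gave, unadjusted, 2 members between untreated genotypes and 3 with IFN-b in Ifnb-/-, with 12, 17 and 10 pathway genes, against 2206, 3953 and 1469 of all genes between untreated genotypes, with IFN-b in Ifnb-/- and in Ifnb+/+, and after Benjamini-Hochberg adjustment 0 members between untreated genotypes and with IFN-b in Ifnb+/+, with 3 pathway genes with IFN-b in Ifnb-/- and 0 in Ifnb+/+, against 6, 334 and 0 of all genes. The pathway count with IFN-b in Ifnb-/- was 2 for the mean of probe sets and for median centring, and 0 for further quantile normalization. It was also 0 for a minimum mean of 5, a filter that left out Adcy8 as too dim.

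Deviations of same-numbered arrays from their group means correlated at r from -0.50 to 0.43 over 18 pairs, 5 above 0.1. Between treated and untreated arrays of the same number, r was 0.05 to 0.07 in Ifnb-/- and 0.06 to 0.30 in Ifnb+/+ CGNs. Differently numbered arrays were not compared, so these values cannot tell whether the numbers pair the arrays. With the replicate block, 3 members were called with IFN-b in Ifnb+/+ (848 of all genes) and 0 pathway genes with IFN-b in Ifnb-/- (266 of all genes). Centring moved the median of all genes by 0.08, -0.10 and -0.04 in the 3 main comparisons. The causes were not tested.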

Other observations

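Among the 10 genes, signals over the 12 arrays ran most closely together for Camk2b and Calb2 (r = 0.948), Ppp3ca and Ppp3cb (0.933), Camk4 and Camk2d (0.917), and Camk2d and Ppp3ca (0.875). The pairs rest on the same 12 arrays, and untreated Ifnb+/+ replicate 1 was the highest or the lowest array for each of these 6 genes. Pcp4 correlated with Camk4 at 0.802. Members varied more within untreated Ifnb+/+ CGNs (median SD 0.361) than within untreated Ifnb-/- CGNs (0.0697), where the medians over all genes were 0.201 and 0.0872.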
